A study of Homo sapiens with 4 samples.

Results

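The ZBTB, KLF and SP genes encode zinc finger transcription factors, and their mRNA levels were compared between A549 cells given a synthetic miR-509-3p, a microRNA mimic, and A549 cells given a negative control mimic. The genes were taken by symbol: every ZBTB or KLF symbol followed by a number, and SP1, SP2, SP3 and SP4, with a probe detected at a detection p under 0.01 on 2 or more of the 4 arrays. Of 64 such symbols on the array, 41 had a detected probe, out of 10239 genes tested. They comprised 29 ZBTB symbols, 8 KLF genes and 4 SP genes. Among the ZBTB symbols, 2 name no zinc finger gene. ZBTB8OS encodes archease, a cofactor of the tRNA ligase complex, and ZBTB11-AS1 is an antisense transcript of ZBTB11.

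A549 is an established line of human lung adenocarcinoma cells. All 4 samples received a mimic by lipid transfection and RNA was taken 24 hours later, so both groups carry the transfection and differ in the mimic given. Each group held 2 Illumina bead arrays, and the labels leave unsaid whether these were separate cultures. The p-values therefore cover the spread between the arrays alone, and that spread may be technical.

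A microRNA guides Argonaute proteins to mRNAs that pair with its seed, bases 2 to 8, and usually lowers the stability and translation of those mRNAs. The mature sequence of the microRNA studied is shown with its seed in capitals. It is encoded by 3 copies on chromosome X in the RefSeq annotation of GRCh38.p14, at chrX:147258775-147258796, chrX:147259662-147259683 and chrX:147260550-147260571, all on the minus strand.
hsa-miR-509-3p: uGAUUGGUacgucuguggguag

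SP and KLF proteins share a DNA-binding domain of tandem zinc fingers at the carboxyl end and bind GC boxes and the related CACCC boxes of promoters. SP1 and SP3 are widely expressed and compete for the same sites. KLF proteins range from activators to repressors and act in proliferation, epithelial differentiation and hormone responses. ZBTB proteins carry an amino-terminal BTB domain, through which many of them dimerise and recruit corepressors, and zinc fingers that read specific DNA, in some members methylated DNA.

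The arrays were alike in brightness and detection. The median probe signal lay between 202 and 207, and 33.7% to 34.7% of 47320 probes were detected. Across genes, which are not independent replicates, arrays correlated at r = 0.994 and 0.996 within groups and at 0.967 to 0.968 across them. Of 6 epithelial markers 5 were detected on 2 or more arrays, including KRT8, KRT7 and EPCAM, and KRT18 was detected on only 1. Of 6 alveolar type 2 markers only ABCA3 was detected, and the defining genes SFTPC, SFTPB, SFTPA1 and NKX2-1 were not above background. None of 4 endothelial markers was detected. Of 5 fibroblast markers only COL1A1 was detected, and of 5 leukocyte markers only ITGAM, while PTPRC was not above background. The summed level of the fibroblast markers was 8.35 to 8.56 on the log2 scale in the controls and 8.63 to 8.73 with the mimic, and that of the leukocyte markers 8.40 to 8.71 and 8.23 to 8.29. That of the alveolar type 2 markers was 9.92 to 10.1 and 10.1 to 10.3. These sums include the markers that were not above background. The detected COL1A1, ITGAM and ABCA3 had log2 fold changes of 0.01, -0.42 and 0.21 and were not called. The epithelial sum was 15.6 to 15.7 in the controls and 15.3 on both mimic arrays, and KRT7 and CDH1 were called lower. The part of these shifts in the results was not tested.

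With the mimic, 10 of the 41 genes rose and 4 fell at a limma adjusted p under 0.05 (Benjamini-Hochberg over all genes tested), and 27 did not pass. The called share was 34.1%, beside 34.4% of all genes, so it is not a result about these genes as a group. Higher calls made up 18.0% of all genes and lower calls 16.5%. That balance depended on the scaling (1314 higher and 1662 lower of all genes with median scaling). The median log2 fold change was 0.13 over the 41 genes and 0.04 over all genes. Over 1.5-fold, 7 of the called genes changed, beside 18.1% of all genes, and over 2-fold 2 did, SP3 and ZBTB5, beside 5.79%. The control and mimic arrays did not overlap for 24 of the 41 genes, or 58.5%, beside 72.9% of all genes, and all 14 called genes were among the 24. By family, 4 of 4 SP genes, 2 of 8 KLF genes and 8 of 29 ZBTB genes were called. Leaving out 1 array at a time, which leaves 1 array in a group, lowered the counts among these genes and among all genes. When dim probes were not filtered out, 64 symbols were tested, of which 5 rose and 3 fell, beside 8.63% of all genes called. Those that fell included KLF12, which was detected on 1 array and is not among the 41. The lower counts are thus not particular to these genes.

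**Figure D1:**
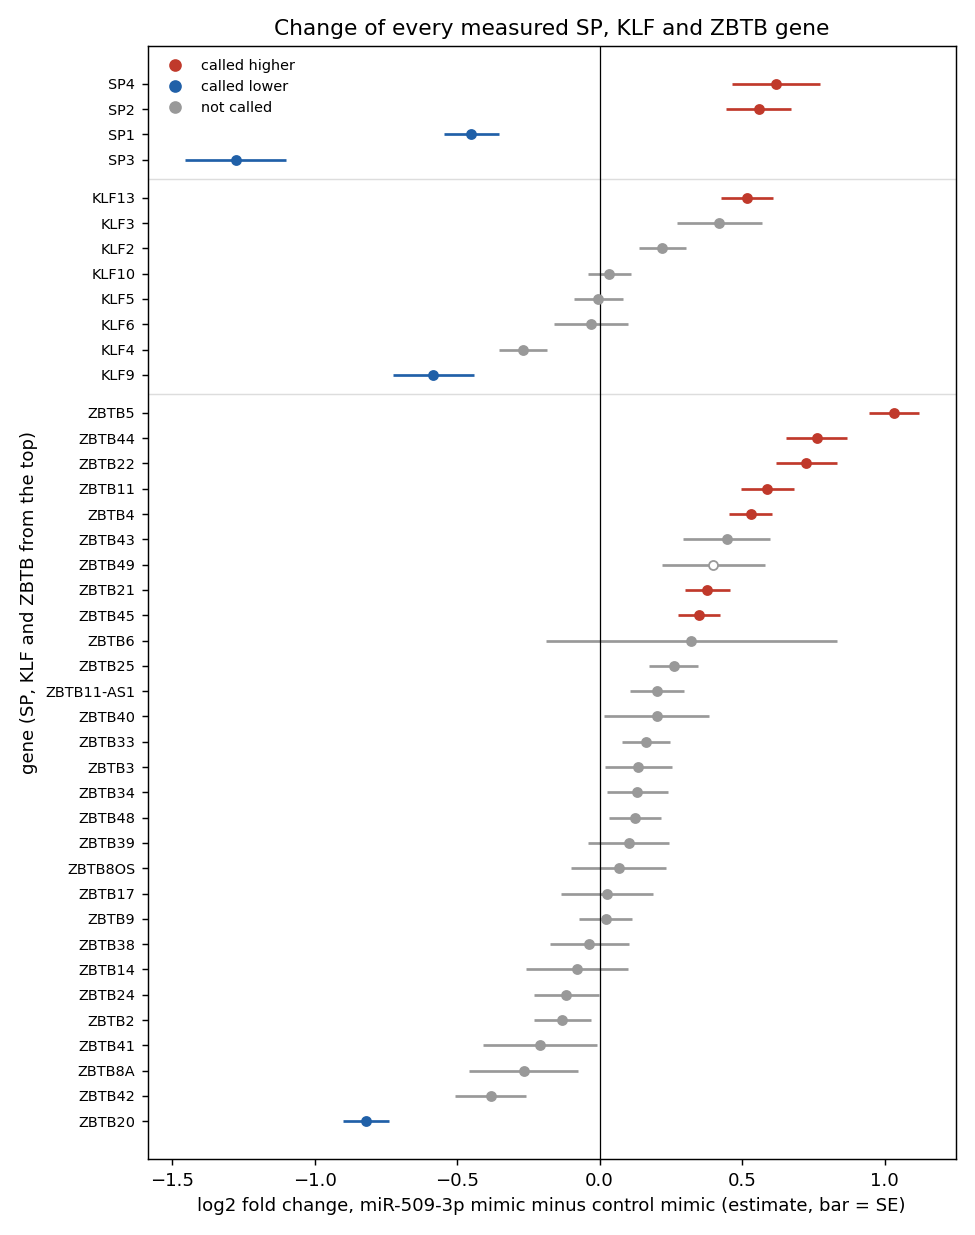
Log2 fold change (mimic minus control) of each of the 41 genes, grouped as SP, KLF and ZBTB from the top, with bars for the standard error and colour for the call. The open circle is ZBTB49, undetected on both controls, whose difference has only a bound. The 4 SP genes lie apart on both sides of 0, from -1.28 for SP3 to 0.62 for SP4, while most ZBTB genes lie within 0.5 of 0.

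The SP genes moved in opposite directions. SP3 and SP1 fell, and SP2 and SP4 rose. SP3, a GC box factor that can activate or repress, had normalized log2 signals of 11.07 and 10.98 on the control arrays and 9.51 and 9.99 on the mimic arrays. Both mimic arrays were below both controls, by more than the gap between replicates, although the mimic arrays differed from each other by more than the controls did. The deposited signals behind these values were 2282 and 2300.0 for the controls and 835 and 1189.7 for the mimic. In log2 units SP3 fell by 1.28 ± 0.18 (± SE of the fit, n = 2 each), which is 2.42-fold lower (95% interval of the log2 fold change -1.75 to -0.80, limma adjusted p = 0.010). A bulk signal cannot tell fewer cells that carry a transcript from less of it per cell.

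SP1, the widely expressed activator after which the family is named, had log2 signals of 10.18 and 10.02 in the controls and 9.70 and 9.59 with the mimic. Both mimic arrays were below both controls. SP1 fell by 0.45 ± 0.10, or 1.37-fold (limma adjusted p = 0.0281). SP2 had log2 signals of 9.22 and 9.29 in the controls and 9.94 and 9.68 with the mimic, and rose by 0.56 ± 0.11, or 1.47-fold (limma adjusted p = 0.0247). SP4, an activator best known from neurons, had log2 signals of 8.52 and 8.36 in the controls and 9.25 and 8.88 with the mimic. It rose by 0.62 ± 0.15, or 1.54-fold (limma adjusted p = 0.0406). The control and mimic arrays of SP2 and of SP4 did not overlap.

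The fall of SP3 was the most stable of these. It was called under each of the 9 other processing choices and without each array in turn, with limma adjusted p-values of 0.0353 to 0.0460 in the latter. The calls of SP1, SP2 and SP4 were lost without any 1 of the 4 arrays, with limma adjusted p-values of 0.0508 to 0.139, 0.0527 to 0.0968 and 0.0528 to 0.138. With no filter on dim probes, and so 20039 genes tested, they were 0.0932, 0.0761 and 0.105. The direction held in every one of these fits. Leaving out an array or the filter could not change it, since the groups did not overlap and the filter does not alter the estimate.

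The promoters of the 4 SP genes are shown because GC boxes are sites of the SP family and the genes moved in opposite directions. They are the 250 bases before the annotated start in RefSeq (GRCh38.p14), with each GGGCGG, on either strand (CCGCCC), in capitals.
SP1 promoter (chr12:53379926-53380175, plus strand): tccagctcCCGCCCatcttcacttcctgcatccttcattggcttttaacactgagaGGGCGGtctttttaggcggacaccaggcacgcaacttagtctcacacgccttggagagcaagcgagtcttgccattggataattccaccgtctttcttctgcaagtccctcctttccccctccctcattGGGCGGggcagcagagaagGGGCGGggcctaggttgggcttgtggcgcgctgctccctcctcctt
SP2 promoter (chr17:47895986-47896235, plus strand): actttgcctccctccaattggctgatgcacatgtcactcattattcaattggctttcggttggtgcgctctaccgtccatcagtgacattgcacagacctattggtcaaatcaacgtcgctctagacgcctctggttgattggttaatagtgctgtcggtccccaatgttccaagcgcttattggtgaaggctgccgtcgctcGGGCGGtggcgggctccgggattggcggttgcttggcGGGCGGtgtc
SP3 promoter (chr2:173965374-173965623, minus strand): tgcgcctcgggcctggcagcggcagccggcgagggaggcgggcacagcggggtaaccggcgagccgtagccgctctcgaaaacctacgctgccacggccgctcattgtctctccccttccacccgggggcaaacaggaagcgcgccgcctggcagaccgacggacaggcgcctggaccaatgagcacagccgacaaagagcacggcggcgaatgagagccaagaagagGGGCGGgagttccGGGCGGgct
SP4 promoter (chr7:21427833-21428082, plus strand): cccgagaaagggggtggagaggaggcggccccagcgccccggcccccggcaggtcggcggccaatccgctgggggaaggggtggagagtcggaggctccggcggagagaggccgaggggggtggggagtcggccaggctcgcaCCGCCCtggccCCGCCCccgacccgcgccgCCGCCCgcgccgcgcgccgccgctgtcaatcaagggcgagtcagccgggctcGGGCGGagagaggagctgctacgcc

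All 4 windows held the motif, with 4 matches in SP1, 2 in SP2, 2 in SP3 and 4 in SP4. The falling and the rising pair thus each held one gene with 4 matches and one with 2. Over the full windows of the table, which run from 250 bases before to 50 bases after the start, 26 of the 35 listed genes with an entry held the motif, or 74.3%. That compares with 70.7% of the tested genes that had an entry and 44.6% of all promoters in the table. A CACCC box, searched as CCACCC on either strand (GGGTGG), was in 13 of 35, or 37.1%, beside 37.3% of the tested genes and 33.4% of all promoters. The GC box was in 9 of the 10 genes that rose and in 2 of the 4 that fell, which were SP1 and SP3. The windows of KLF9 and ZBTB20 held neither motif, and their GC content was 32.7% and 35.7%, beside a median of 65.3% over the tested genes. Each gene was read at a single annotated start, so windows at other starts, also of KLF9 and ZBTB20, were not searched. These matches are descriptions of the letters in the windows.

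Of the KLF genes, 1 fell, 1 rose and 6 did not pass. KLF9, a factor induced by glucocorticoid and thyroid hormone, had log2 signals of 9.60 and 9.81 in the controls and 8.97 and 9.27 with the mimic. Both mimic arrays were below both controls. KLF9 fell by 0.58 ± 0.14, or 1.5-fold (limma adjusted p = 0.0389). KLF13, which activates the chemokine gene CCL5 in T cells, had log2 signals of 11.88 and 11.82 in the controls and 12.44 and 12.29 with the mimic. It rose by 0.52 ± 0.09, or 1.43-fold (limma adjusted p = 0.0175). Neither call held without any 1 array, with limma adjusted p-values of 0.0660 to 0.146 for KLF9 and 0.0549 to 0.0933 for KLF13, nor without the filter on dim probes, at 0.103 and 0.0633.

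Among the KLF genes that did not pass, KLF4, an epithelial differentiation and pluripotency factor, had a log2 fold change of -0.27 ± 0.08 (limma adjusted p = 0.0702). KLF2, a factor of endothelial quiescence, had 0.22 ± 0.08 (limma adjusted p = 0.107) and passed only with a trend and robust estimation of the variance together. KLF3, a repressor that recruits CtBP, had 0.42 ± 0.15. It was detected on 3 of 4 arrays and passed only without control 2. The groups did not overlap for these 3 genes. For KLF5, which drives epithelial proliferation, KLF6, an early response factor, and KLF10, which TGF-beta induces, the groups overlapped. KLF5 had a log2 fold change of -0.0041 (95% interval -0.24 to 0.23), KLF6 -0.03 (-0.38 to 0.32) and KLF10 0.03 (-0.17 to 0.23), so each interval lies within 1.5-fold.

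**Figure D2:**
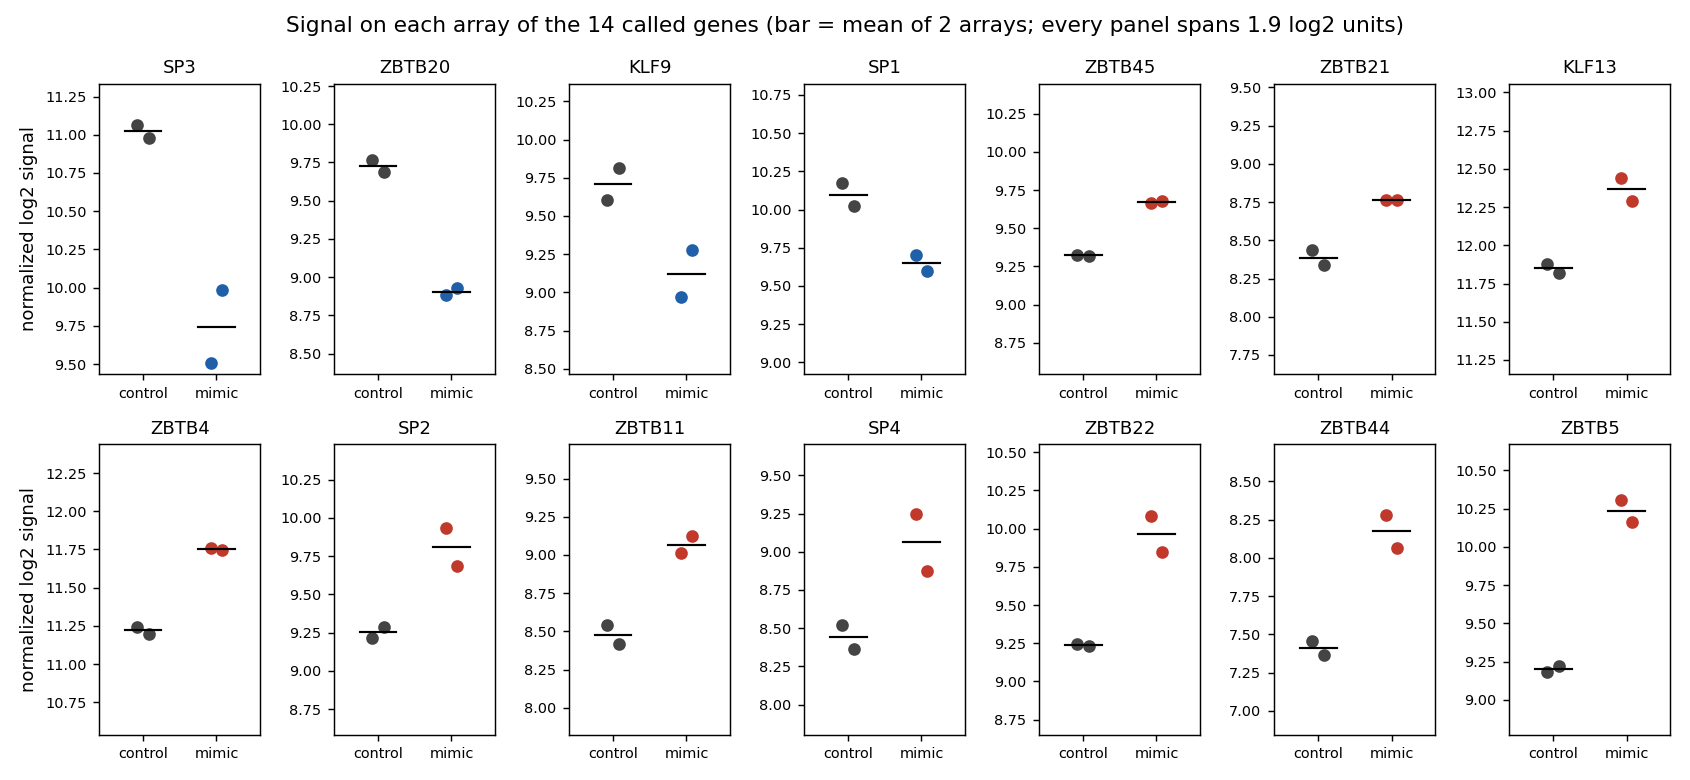
Normalized log2 signal on each of the 2 control and 2 mimic arrays for the 14 called genes, each panel spanning 1.9 log2 units, with bars for the group means. In every panel the mimic arrays lie wholly above or wholly below the controls, and the widest gap between the mimic arrays is that of SP3, at 9.51 and 9.99.

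Of the ZBTB genes, 7 rose, 1 fell and 21 did not pass. ZBTB5, a repressor reported to act on the cell cycle inhibitor gene CDKN1A, showed the widest rise, with log2 signals of 9.18 and 9.22 in the controls and 10.31 and 10.17 with the mimic. The deposited signals were 726 and 776 against 1343 and 1331. The groups were far apart relative to the replicates, and ZBTB5 rose by 1.03 ± 0.09, or 2.05-fold (95% interval of the log2 fold change 0.80 to 1.27, limma adjusted p = 0.00384). Its rise was called under all 9 other processing choices and without each array in turn, between 0.96 and 1.10 on the log2 scale in the latter. CDKN1A itself did not pass, at -0.08 ± 0.09.

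ZBTB20, which silences the alpha-fetoprotein gene in the adult liver and is needed in the hippocampus, was the only ZBTB gene called lower. Its log2 signals were 9.77 and 9.69 in the controls and 8.88 and 8.93 with the mimic, so replicates lay within 0.1 of each other. ZBTB20 fell by 0.82 ± 0.08, or 1.77-fold (95% interval -1.03 to -0.61, limma adjusted p = 0.00475). It was also called under every other processing choice and without each array. With SP3 and ZBTB5 it was 1 of 3 genes of the 41 for which this held.

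The other rises were smaller. ZBTB44 had log2 signals of 7.46 and 7.36 in the controls and 8.28 and 8.06 with the mimic and rose by 0.76 ± 0.11 on the probe used. ZBTB22, a gene of the major histocompatibility region, had 9.25 and 9.23 against 10.08 and 9.85 and rose by 0.73 ± 0.11. ZBTB11, which neutrophil development requires in zebrafish, had 8.54 and 8.41 against 9.01 and 9.12 and rose by 0.59 ± 0.09. In each of these 3 genes both mimic arrays were above both controls. The antisense transcript ZBTB11-AS1 did not pass, at 0.20 ± 0.09 (limma adjusted p = 0.164).

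ZBTB4, which binds methylated CpG, had log2 signals of 11.25 and 11.20 in the controls and 11.76 and 11.75 with the mimic and rose by 0.53 ± 0.07. ZBTB21, a zinc finger gene on chromosome 21, rose by 0.38 ± 0.08, from 8.43 and 8.34 to 8.76 and 8.77. ZBTB45 rose by 0.35 ± 0.07, from 9.32 on both controls to 9.66 and 9.68. The limma adjusted p-values of these 6 smaller rises lay between 0.0103 for ZBTB4 and 0.0270 for ZBTB21. The calls of ZBTB22 and ZBTB44 were lost without mimic 1 (limma adjusted p = 0.0595 and 0.0600), and that of ZBTB4 without either mimic array (up to 0.0717). ZBTB11 was not called without control 2 or either mimic array (up to 0.0818). ZBTB45 and ZBTB21 were not called without any 1 array, up to 0.127 for both, nor with median scaling, with no filter on dim probes or with the replicate number as a block.

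**Figure D3:**
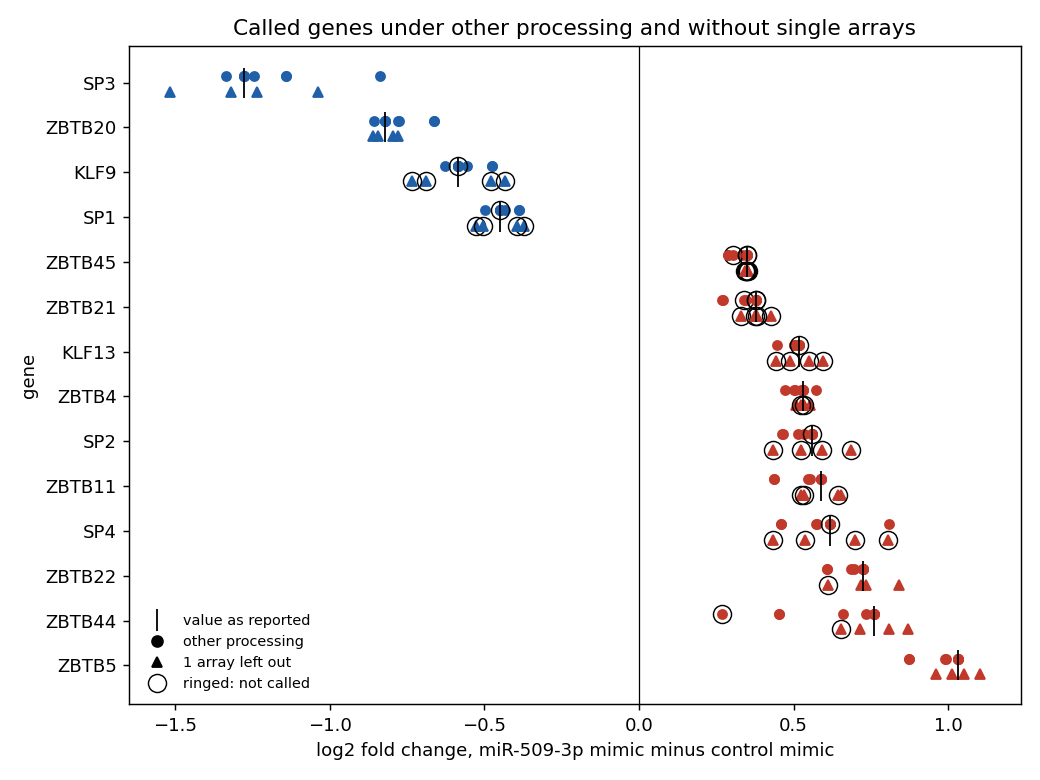
Log2 fold change of the 14 called genes as reported (bars), under 9 other processing choices (circles) and without each array (triangles), with rings where the adjusted p was not under 0.05. No point crosses 0, which the triangles could not do because the groups did not overlap. Only SP3, ZBTB20 and ZBTB5 carry no ring.

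The 21 ZBTB symbols that did not pass had log2 fold changes from -0.38 for ZBTB42 to 0.45 for ZBTB43. ZBTB33, which encodes Kaiso, a factor that binds methylated DNA, had 0.16 ± 0.08 (95% interval -0.06 to 0.39), without overlap between groups. ZBTB38, its relative, had -0.04 ± 0.14 with overlapping groups. ZBTB17, which encodes the MYC partner MIZ1, had 0.03 ± 0.16, and ZBTB48, a telomere-binding factor, had 0.12 ± 0.09. ZBTB24, mutated in a syndrome of immunodeficiency and centromere instability, had -0.12 ± 0.11. ZBTB14, a transcriptional repressor, had -0.08 ± 0.18, and its mimic arrays, at 9.70 and 9.22, lay on either side of the controls. The groups overlapped for ZBTB17, ZBTB24 and ZBTB14 and not for ZBTB48.

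Among the ZBTB genes with negative values, ZBTB42 was the nearest to a call, at -0.38 ± 0.12 (limma adjusted p = 0.0778). It passed under 4 other processing choices, among them the authors' processed values at -0.29. Another of the 4, no background correction, is nearly the same processing as the authors' values. ZBTB43 had 0.45 ± 0.15 (limma adjusted p = 0.0851) and ZBTB25 0.26 ± 0.09 (0.0811), both without overlap between groups. ZBTB2, ZBTB3, ZBTB9, ZBTB34, ZBTB39, ZBTB40, ZBTB41, ZBTB8A and ZBTB8OS lay between -0.27 and 0.20 and overlapped between groups. Of all 27 genes that did not pass, 26 had a 95% interval within 2-fold either way and 19 within 1.5-fold. The exception to the wider bound was ZBTB6, whose interval ran from -1.03 to 1.68.

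Dim genes lay at the edge of detection. ZBTB6 was detected on control 1 and mimic 2, with log2 signals of 6.96 and 7.14 there and of 5.76 and 6.23 on the other arrays. ZBTB49 was detected on both mimic arrays and on neither control, so it met the detection rule through the mimic arrays alone. It was not called (limma adjusted p = 0.156), and the 95% interval of its log2 fold change, -0.08 to 0.88, includes 0. Its mimic mean was 1.09-fold above a bound set by the lowest detected signal of each control array. That bound averaged 6.78 on the log2 scale, and mimic 2 also lay at 6.78, so a rise is not shown. ZBTB6 and ZBTB49 passed the detection rule with a second lowest detection p of 0.00779. Just outside it were KLF7 and ZBTB7B at 0.0104 and ZBTB18 at 0.0117. Of the 23 symbols left out, 7 were detected on 1 array and 16 on none. The 7 included ZBTB7A, a repressor of glycolytic genes, and KLF12. The 16 included ZBTB16, ZBTB10, KLF15 and KLF8.

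More than 1 detected probe was present for 8 of the genes. SP3 had 3. The next brightest fell by 1.17 ± 0.13, with log2 signals of 10.15 and 10.23 in the controls and 8.86 and 9.17 with the mimic, close to the probe used. The dimmest, with 6.78 and 6.95 against 7.45 and 6.15, had -0.06 ± 0.44 and did not pass. With the probes of a gene averaged, SP3 fell by 0.84, which is over 1.5 times less than on the brightest probe, and was still called. The second SP4 probe rose by 1.00 ± 0.09, from 7.39 and 7.55 to 8.44 and 8.50. The second probes of ZBTB20 and ZBTB4 fell by 0.73 ± 0.14 and rose by 0.61 ± 0.14. The probes of these 4 genes that are named here as rising or falling passed with limma p-values adjusted over the 16561 detected probes.

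The probes of ZBTB44 went against each other. Its second probe, nearly as bright, had log2 signals of 7.85 and 7.68 in the controls and 7.60 and 7.47 with the mimic, a log2 fold change of -0.23 ± 0.10 that did not pass (limma adjusted p = 0.165 over probes). Averaging both gave 0.27 (limma adjusted p = 0.0934), and without background correction the probe used gave 0.45 in place of 0.76. The rise of ZBTB44 is therefore a value of 1 of its 2 probes. The further probes of KLF4, KLF10 and ZBTB25 did not pass, as the probes used did not, and those of KLF10 lay on both sides of 0, from -0.05 to 0.11.

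**Figure D4:**
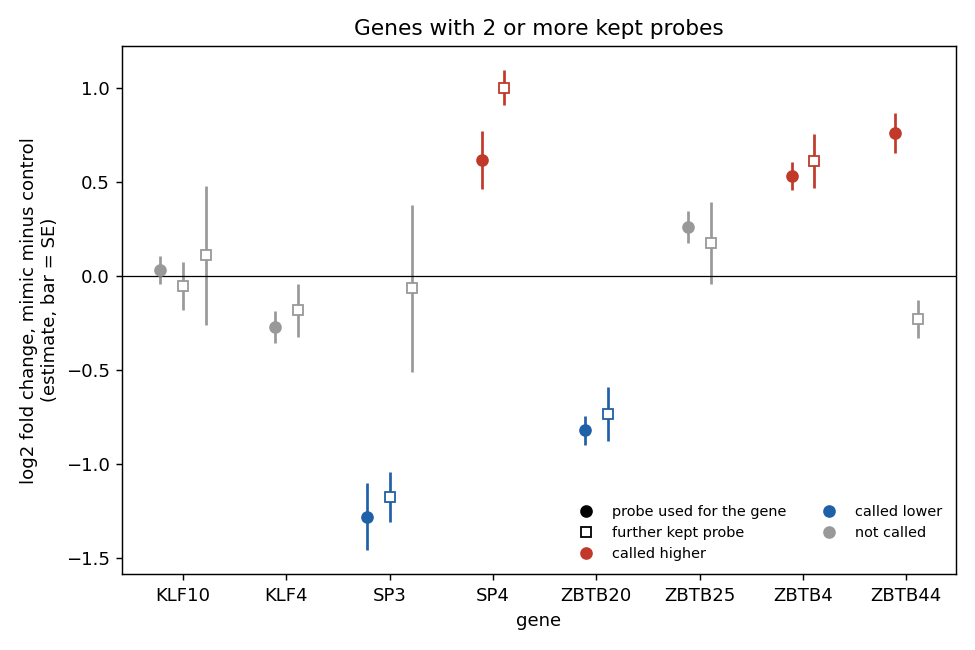
Log2 fold change with standard error for every detected probe of the 8 genes that had 2 or 3, with filled circles for the probe used and open squares for the others, coloured by the call over probes. The probes of SP4, ZBTB20 and ZBTB4 share a sign and a call, those of ZBTB44 lie at 0.76 and -0.23, and the dimmest SP3 probe lies at -0.06 with a wide error.

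Genes that work with these factors were taken from 5 lists written from general knowledge, with earlier results of these data known. Of the BTB zinc finger genes under other names, 2 of 4 measured rose and 2 did not pass, beside 18.0% of all genes called higher. BCL6, the germinal centre repressor, rose by 0.48 ± 0.09, and HIC2, a relative of the tumour suppressor gene HIC1, rose by 0.53 ± 0.09. MYNN and ZNF131 had 0.14 ± 0.09 and 0.35 ± 0.14. The median over the 4 genes was 0.42. Of the other zinc finger factors of GC-rich sites only EGR1 and WT1 were measured, at 0.66 ± 0.36 and -0.53 ± 0.19, and neither passed. The level of EGR1 was 9.45 ± 0.75 in the controls and 10.11 ± 0.06 with the mimic (SD, n = 2 each).

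Of 17 measured partners and corepressors, 4 rose, 2 fell and 11 did not pass, with a median of -0.06. The called share was 35.3%, near the 34.4% of all genes, so it is not a result about these genes as a group. HDAC1, a histone deacetylase of the SIN3 and NuRD complexes, rose by 0.61 ± 0.07 and the scaffold gene SIN3A by 0.40 ± 0.09. FBXW7 and WWP1, ubiquitin ligases that act on KLF5, rose by 0.50 ± 0.11 and 0.42 ± 0.08, though the second FBXW7 probe had 0.24 and did not pass. GPS2, a subunit of a histone deacetylase corepressor complex, fell by 0.36 ± 0.09, and the demethylase gene KDM1A by 0.35 ± 0.08. BCOR, a corepressor of BCL6, and the coactivator gene EP300 had -0.06 ± 0.09 and -0.01 ± 0.18 and did not pass, nor did the second BCOR probe at -0.37.

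Of 17 measured genes reported as SP or KLF targets, 7 fell and 1 rose, while 9 did not pass. Lower calls made up 41.2% of the list, beside 16.5% of all genes, and its median log2 fold change was -0.28, also with IGF1R at its bound, beside 0.04 over all genes. MYC fell by 0.87 ± 0.08, as did its second probe by 0.89. CCND1, the cyclin of G1 progression, fell by 0.68 ± 0.07, from 14.66 ± 0.02 to 13.98 ± 0.02 (SD, n = 2 each). MAOA, a monoamine oxidase, fell by 0.58 ± 0.08 and VEGFA, the angiogenic factor, by 0.42 ± 0.09. IGF1R, the receptor of insulin-like growth factor, was the 1 gene counted as rising. It was not above background on either control array and passed the detection filter through the mimic arrays alone. That call was therefore not independent of the filter. The level of IGF1R with the mimic was at least 1.31-fold higher (limma adjusted p = 0.0322). SOD2 had 0.00020 ± 0.07. Of 8 measured genes reported as ZBTB targets, 4 fell and 1 rose, while 3 did not pass, which is 50% lower beside 16.5% of all genes and 12.5% higher beside 18.0%. The median was -0.23. Both target lists were written with earlier results of these data known. Their shares of lower calls are therefore descriptions, not tests. Of the 8 genes, FASN and CDKN1A are on both lists. SLC2A3, a glucose transporter reported as repressed by ZBTB7A, rose by 0.92 ± 0.08, whereas PFKP, reported as repressed by the same factor, fell by 0.46 ± 0.07. VAMP4 and MMP7 fell by 0.56 ± 0.15 and 0.41 ± 0.07. The second MMP7 probe had -0.24 and did not pass.

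Over all 46 measured genes of these lists, 8 rose and 12 fell, or 17.4% and 26.1%, beside 18.0% and 16.5% of all genes. The 8 include IGF1R, which has only a bound. Genes named as rising or falling had limma adjusted p-values between 0.00396 for MYC and 0.0445 for VAMP4. When control 1 was dropped 7 rose and 4 fell, when control 2 was dropped 2 rose and 3 fell, and when either mimic array was dropped 1 rose and 1 fell. Of all genes, 21.8%, 20.5%, 8.96% and 9.57% were called without control 1, control 2, mimic 1 and mimic 2 in turn. With the replicate number as a block 5 rose and 6 fell, beside 25.7% of all genes called, and with no filter on dim probes 2 rose and 3 fell, beside 8.63%.

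**Figure D5:**
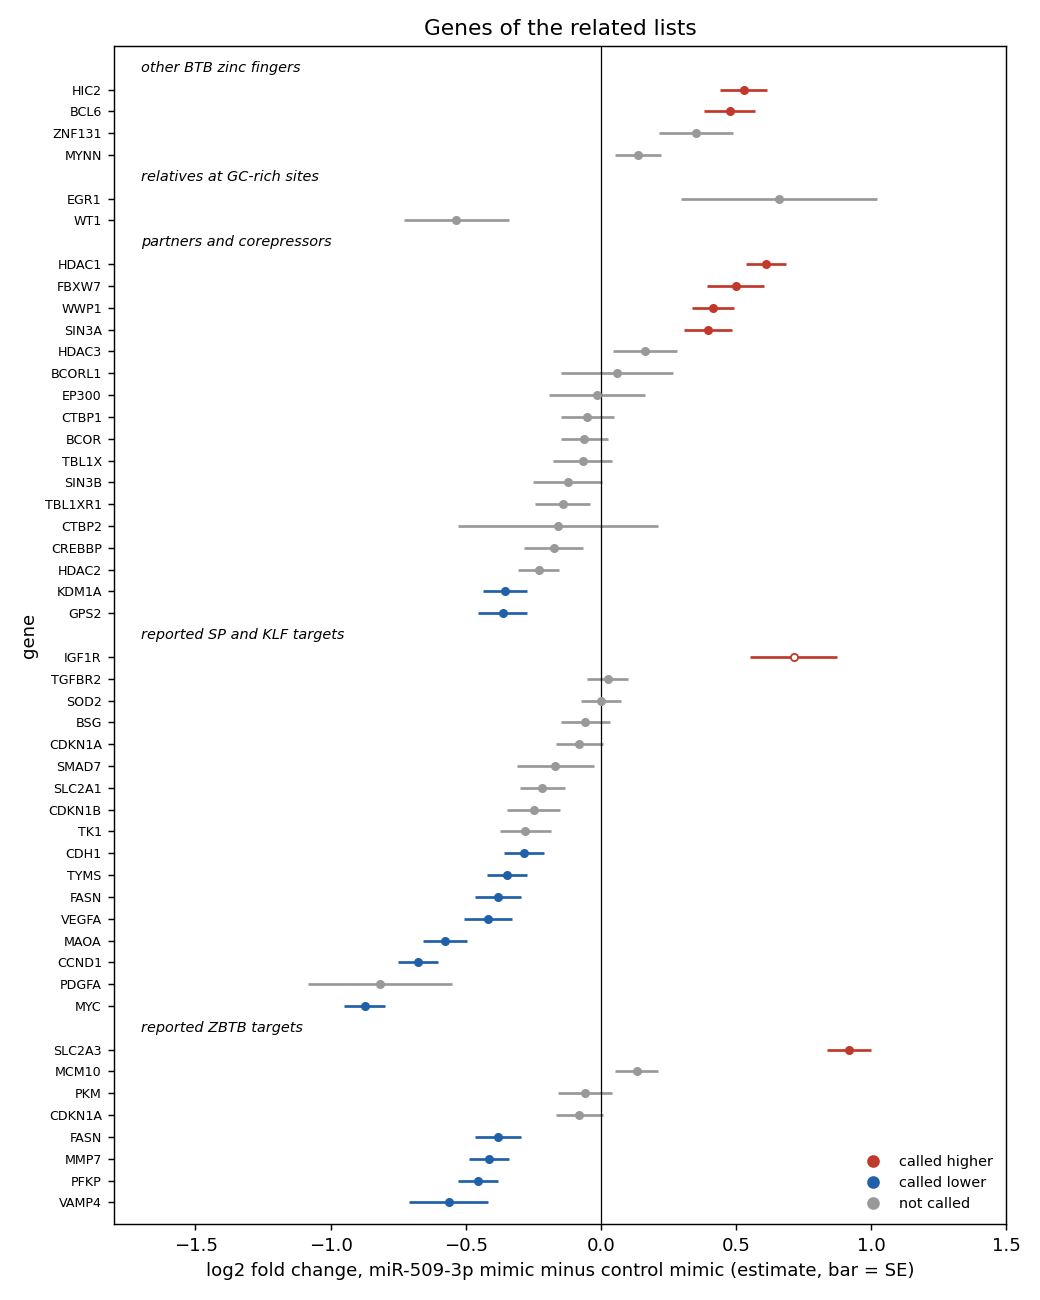
Log2 fold change with standard error of the measured genes of the 5 related lists, coloured by the call. Most reported SP and KLF targets lie below 0, with MYC at -0.87 and CCND1 at -0.68. The open circle above 0 is IGF1R, undetected on both controls, whose difference has only a bound. Among reported ZBTB targets SLC2A3 lies at 0.92 and PFKP at -0.46.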

How the data were processed

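A549 RNA, taken 24 hours after transfection, was hybridised as labelled cRNA, according to the protocols in the labels. The deposited tables give a linear intensity for each probe, with no normalization between arrays, and beside it a detection p-value; the submitters' processing notes name GenomeStudio 2009.2. The authors also deposited processed log2 values for 19069 probes, by a method not given in the sources used here. Once sorted, these values lay within 0.0027 of quantile-normalized log2 signals, with a median of 9.42 on each array and a correlation of 0.979 or more with each array's own signals, both centred by probe. No column of sample values went unused.

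From the intensities, R 4.3.3 and limma 3.58.1 were used for neqc (normexp with the detection p-values, offset 16, quantile normalization, log2), then lmFit and eBayes on the 16561 probes detected at p under 0.01 on 2 or more arrays, without covariates (residual degrees of freedom 2, prior 2.48). Each gene was represented by its brightest detected probe, which gave 10239 genes, over which p-values were adjusted by Benjamini-Hochberg. The platform annotation gave 30113 probes 1 gene name, 8 several and 17199 none; 30092 names were matched to the RefSeq table (GRCh38.p14). A group undetected on both arrays has only a bound.

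The genes and lists were chosen with earlier results of these data known. The text names every called gene, SP1 to SP4 whatever their call, members whose probes, detection or alternatives differ, and called list members with the widest change; EGR1, WT1, MYNN, ZNF131, BCOR, EP300, SOD2, CDKN1A, GPS2, KDM1A and VEGFA, and the other genes that did not pass, were chosen after their values were seen. On simulated data for 10239 genes the fit called 11 of 10039 unchanged genes. Of those changed it recovered 21 of 58 at a log2 change of 0.5, 68 of 72 at 1, and 69 of 70 at 2. In the data 34.4% of all genes were called, far more than were changed in the simulation. The adjustment was therefore stricter in the simulation, and its rates of recovery and of false calls may not hold for the data. Alternatives were other background, offset, scaling, filter, variance and probe choices, the authors' values, a replicate block and leaving out each array. Of these, no background correction and the authors' values were nearly the same processing, each with 40.6% of all genes called. Promoter and microRNA sequences are from RefSeq, and 35 of the 41 genes had a promoter entry. The array files name no genome build. No batch was tested, since neither labels nor headers name a slide or scan date. Figures were drawn with matplotlib 3.10.9.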

Additional observations from a re-analysis of the deposited data

How the results depend on the processing

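All 14 called genes kept their sign under the 9 other processing choices and without each array. Without an array the sign could not change, since the groups of these genes did not overlap. Choices of filter, variance or replicate block left the estimate as it was. Only the background, offset, scaling and probe choices and the authors' values could have changed the sign. Of the 14 genes, 6 were called under all 9 choices. With no filter on dim probes, 20039 genes were tested and 5 of the listed genes rose and 3 fell, of which 7 were among the 14; the other was KLF12, detected on 1 array, lower with the mimic, which is given no size because at least 1 group was below background. Under that setting 768 of all genes were higher and 961 lower, and of the related genes 2 rose and 3 fell. The normalized values showed no pairing by replicate number: deviations of same-numbered arrays correlated at -0.06 over genes. Quantile normalization removes array-wide shifts, so a shift shared by same-numbered arrays could not be seen. With the replicate block, 12 of the 14 were still called, ZBTB21 and ZBTB45 were not, and of the related genes 5 rose and 6 fell. Leaving out 1 array gave 1 to 5 rises and 2 falls among the listed genes, 310 to 1140 and 607 to 1089 among all genes, and 1 to 7 and 1 to 4 among the related genes. These fits have 1 residual degree of freedom, and where a group keeps 1 array that array is assumed to vary like the others. Changes of 0.5 on the log2 scale were mostly missed in a simulation that changed far fewer genes than were called in the data. Recovery in the data, with 2 arrays a group, may therefore differ. Genes near background, such as ZBTB6, have wide errors.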
